A study of Mus musculus with 6 samples.

Results

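The CD3 chains, the CD4 and CD8 coreceptors and the T cell surface markers CD2, CD5 and CD90 were followed across mouse T cell leukemias with and without the adaptor gene Sh2b3. The 10 genes were chosen by symbol (Cd3d, Cd3e, Cd3g, Cd247, Cd4, Cd8a, Cd8b1, Cd2, Cd5 and Thy1), out of 18194 genes with a probe set of their own on the array, and all their 18 probe sets that carry 1 gene symbol were read. All 10 genes passed the filter on low values and were among the 12565 genes tested. Gene expression was measured on 6 one-colour arrays, 3 from leukemias of wild-type (WT) marrow and 3 from leukemias of Sh2b3 knockout (KO, Sh2b3-/-) marrow. Donor marrow came from C57BL6 or Sh2b3-/- mice aged 8 weeks, was depleted of lineage-positive cells and was infected with a MigR1 retrovirus carrying ΔE-Notch1, an activated Notch1 without most of its extracellular part. Both groups therefore carry the activated Notch1, which the transplanted cells express from the retrovirus. Irradiated C57BL6 recipients received 50000 Lin-Sca1+ cells each, and blood was followed for the green reporter and for CD4 and CD8. RNA came from the tumours, and 10 ng per sample was amplified. The age of the recipients, the tumour site and any sort of the tumour cells are not stated in the labels, so cells of the host may be in the samples.

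The T cell receptor reaches the cell surface only in a complex with the CD3 gamma, delta and epsilon chains and the zeta chain encoded by Cd247, whose tails carry the motifs that Lck and ZAP-70 read. CD4 and CD8 bind MHC class II and class I molecules and bring Lck to the receptor. In the thymus, precursors begin without either coreceptor, pass through an immature CD8 single positive step to the CD4 and CD8 double positive stage, and keep one of them when mature, so that levels of both are commonly used to place a T cell leukemia along this path.

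Values are GCRMA signals on a log2 scale, where array medians lay between 2.26 and 2.36 and values below 3 are called near the bottom here. Levels of different probe sets are not comparable with each other, and each gene is therefore compared only between arrays. Log2 fold changes are KO minus WT with moderated standard errors (SE) from limma, and adjusted p is by Benjamini-Hochberg over all genes tested. As a check of the labels, Sh2b3 read 4.25, 4.83 and 4.08 in WT and 2.29, 2.24 and 2.29 in KO, with no overlap (log2 fold change -2.11, SE 0.247, adjusted p = 0.157 by limma). The deleted exons are not named in the labels, and its other probe set stayed near the bottom in both groups. WT arrays 1 and 2 were closer to each other than any other pair: their values differed with an SD of 0.234 across the 6725 genes whose mean exceeded 5, whereas the 14 remaining pairs gave SDs from 0.503 to 0.689. The labels describe biological replicates and also RNA isolated in triplicate, and they tie no array to an animal, so p-values here rest on a spread among arrays that may be technical in part. The median over the tested genes on each array was, averaged by group, 0.15 lower in KO than in WT. The median of the fold changes of the single genes was -0.013, so this shift of array medians is not the change of a typical gene. Fold changes relative to the shift are given as an alternative scaling where the sign depends on it. In bulk samples such as these, fewer cells of a type and less RNA per cell cannot be told apart.

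The starting regions of 4 of the genes are shown because they represent the patterns in the data: Cd3d and Cd3g are neighbours on chromosome 9 that are read away from each other and varied little, while Cd247 and Cd8a varied more. The table of RefSeq promoters used here held an entry for 6 of the 10 genes. Each sequence is the 250 bases before the gene's start in GRCm38.p6, 5′ to 3′ on the gene's strand. The positions are chr9:44981536-44981785, plus strand, for Cd3d, chr9:44980432-44980681, minus strand, for Cd3g, chr1:165788431-165788680, plus strand, for Cd247, and chr6:71373177-71373426, plus strand, for Cd8a. Capitals mark matches, on either strand, to 5 short motifs. E proteins bind the E-box, searched here as CAGNTG. The ETS factors were represented by the motif AGGAAG. For RUNX factors the letters searched were TGTGGT. For GATA factors they were AGATAA. The TCF and LEF factors were represented by CTTTGA, and no match overlapped another in the windows shown.
Cd3d: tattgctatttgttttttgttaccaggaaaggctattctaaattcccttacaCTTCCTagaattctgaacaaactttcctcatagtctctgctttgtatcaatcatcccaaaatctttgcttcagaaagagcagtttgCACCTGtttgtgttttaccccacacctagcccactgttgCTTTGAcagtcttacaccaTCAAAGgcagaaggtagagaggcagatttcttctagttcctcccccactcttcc
Cd3g: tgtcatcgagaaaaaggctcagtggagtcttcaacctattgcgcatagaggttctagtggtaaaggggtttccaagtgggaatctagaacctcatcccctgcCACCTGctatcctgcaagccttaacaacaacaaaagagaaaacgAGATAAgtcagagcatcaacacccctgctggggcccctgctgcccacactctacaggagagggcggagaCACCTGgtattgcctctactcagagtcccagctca
Cd247: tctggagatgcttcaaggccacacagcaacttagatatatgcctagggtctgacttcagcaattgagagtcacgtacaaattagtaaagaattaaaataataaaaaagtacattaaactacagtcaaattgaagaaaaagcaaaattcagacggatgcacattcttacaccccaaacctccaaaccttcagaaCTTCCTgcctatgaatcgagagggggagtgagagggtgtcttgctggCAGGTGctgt
Cd8a: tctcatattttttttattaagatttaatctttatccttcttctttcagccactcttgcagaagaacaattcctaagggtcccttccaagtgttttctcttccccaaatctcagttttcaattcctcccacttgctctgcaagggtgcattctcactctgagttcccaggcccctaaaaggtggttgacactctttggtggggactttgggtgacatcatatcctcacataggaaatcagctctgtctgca
The Cd3d window held 1 E-box, 1 ETS match and 2 TCF and LEF matches. The Cd3g window held 2 E-boxes and 1 GATA match, and the Cd247 window 1 E-box and 1 ETS match. The Cd8a window held 0 matches to the 5 motifs. Of 32851 promoter windows of this length, 44.8% held the E-box, 29.5% the ETS motif, 14.0% the RUNX motif, 9.99% the GATA motif and 13.8% the TCF and LEF motif. Matches of these lengths are descriptions of the letters, and the arrays measured nothing at these sites.

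The leukemias carried strong signals for CD3 chains, CD8 and Thy1, and signals low on the scale for Cd4. No difference between KO and WT passed the test: 0 of 10 genes passed the adjusted threshold of 0.05 by limma, and 0 of 10 had an unadjusted p under 0.05 (3 without WT replicate 3: Cd4, Cd3e and Thy1). Over all 12565 genes, 0 passed (0%) and 982 had an unadjusted p under 0.05 (7.82%). Adjusted p for the 10 genes ran from 0.666 to 0.988. Point estimates were above 0 for 3 genes and below 0 for 7, where 51.9% of all tested genes lay below 0. The median over the 10 was -0.19, against -0.013 over all tested genes, and relative to the shift of the median 5 of the 10 lay above it. Single arrays differed by 0.50 for Cd3d to 2.40 for Cd4 between the lowest and the highest, and group means by at most 0.71. KO array 3 gave the lowest value for 6 of the 10 genes (Cd3d, Cd247, Cd4, Cd8a, Cd8b1 and Cd5), where it was lowest for 22.6% of all tested genes. WT array 1 gave the highest value for 6 of the 10 (Cd3e, Cd3g, Cd4, Cd8a, Cd5 and Thy1), where it was highest for 16.3% of all.

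**Figure D1:**
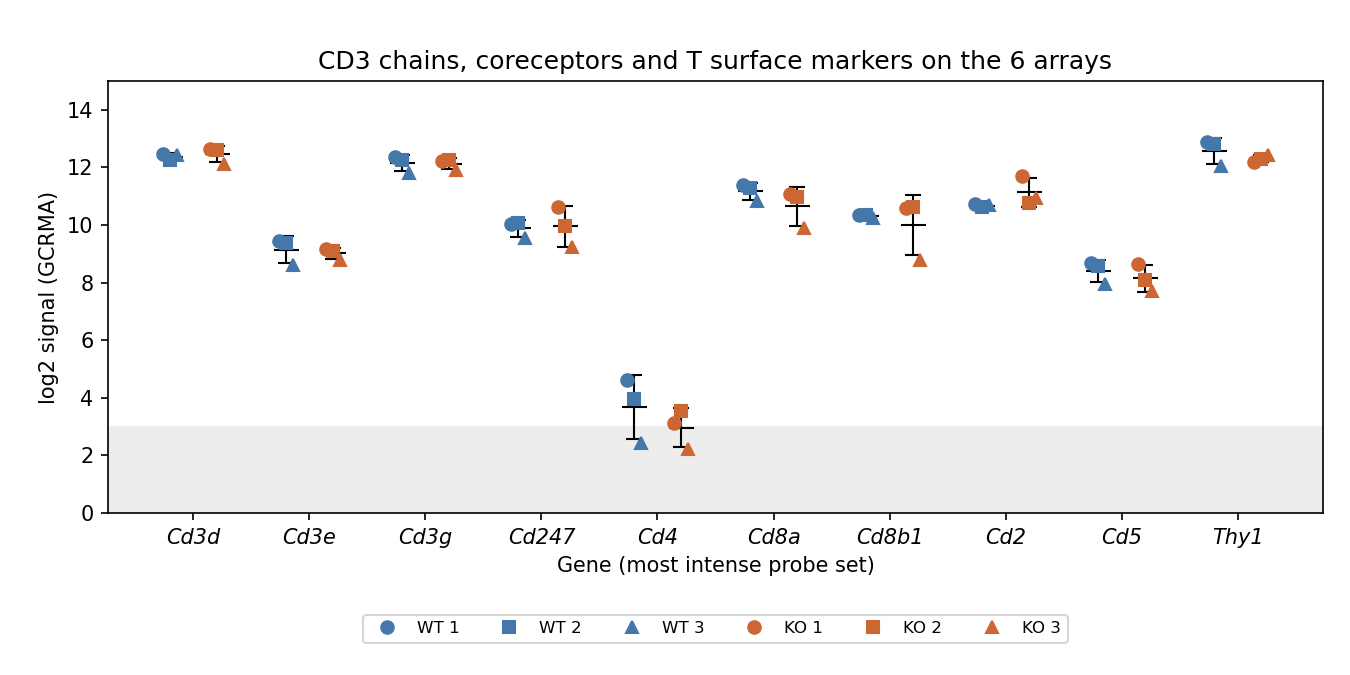
Log2 GCRMA signal (vertical axis) of the most intense probe set of each gene (horizontal axis) on the 6 arrays, with WT in blue and KO in orange, black bars for mean ± SD (n = 3) and grey shading for values below 3. Cd4 lies between 2.23 and 4.63, and KO array 3 stands at 9.88 for Cd8a and 8.80 for Cd8b1, below the other 5 arrays.

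Cd3d, which encodes the delta chain, read 12.46, 12.24 and 12.42 in WT and 12.63, 12.59 and 12.13 in KO (probe set 1422828_at). The groups overlapped, since KO array 3 was the lowest and KO array 1 the highest of the 6. Means were 12.37 ± 0.12 and 12.45 ± 0.28 (SD, n = 3), with a log2 fold change of 0.077 (SE 0.144, adjusted p = 0.905 by limma). Cd3g, which encodes the gamma chain and lies next to Cd3d, read 12.35, 12.26 and 11.82 in WT and 12.23, 12.25 and 11.91 in KO (1419178_at). Its groups overlapped almost wholly, with array 3 the lowest in each, and the log2 fold change was -0.013 (SE 0.160, adjusted p = 0.988 by limma). Over all 6 arrays the SDs of Cd3d and Cd3g were 0.195 and 0.216, larger than those of 29.6% and 36.3% of the 6725 genes with a mean above 5. These were the smallest SDs of the 10 genes.

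Cd3e, which encodes the epsilon chain and lies beside Cd3d on its other flank, read 9.44, 9.39 and 8.60 in WT and 9.16, 9.09 and 8.80 in KO (1422105_at). WT array 3 was the lowest and the other WT arrays were the highest, so that the KO values fell inside the WT range. Means were 9.14 ± 0.47 and 9.02 ± 0.19 (SD, n = 3), with a log2 fold change of -0.13 (SE 0.239, adjusted p = 0.905 by limma). The order of arrays was alike for Cd3e and Cd3g: with each profile centred on its own mean, the root mean square difference between them over the 6 arrays was 0.127, the smallest of the 45 pairs of the 10 genes. Cd3d and Cd3e, also neighbours, differed by 0.320. The directions of these 3 chains rest on single arrays or on the scaling. Cd3d stood at -0.013 without KO replicate 1, and Cd3e at 0.022 without WT replicate 1. Cd3g stood at 0.090 without WT replicate 1 and at 0.097 without KO replicate 3, and at 0.00083 with quantile normalization and 0.14 relative to the shift of the median, where Cd3e stood at 0.023.

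Cd247, which encodes the zeta chain with 3 signalling motifs, varied more than the other CD3 chains. Its most intense probe set (1426396_at) read 10.03, 10.07 and 9.54 in WT and 10.64, 9.97 and 9.24 in KO. KO arrays 1 and 3 were the highest and the lowest of all 6, and the WT arrays lay between them. Means were 9.88 ± 0.30 and 9.95 ± 0.70 (SD, n = 3), with a log2 fold change of 0.070 (SE 0.326, adjusted p = 0.964 by limma). The probe set 1452539_a_at read 7.12, 6.65 and 6.92 in WT and 7.83, 7.12 and 5.64 in KO, a range of 2.19. The probe set 1420716_at read 4.82, 4.68 and 4.60 in WT and 5.10, 4.63 and 3.84 in KO. All 3 of these probe sets were highest on KO array 1 and lowest on KO array 3. The 4th probe set, 1426079_at, stayed between 1.43 and 1.86, near the bottom, and was not tested. The SD of Cd247 over the 6 arrays, 0.482, exceeded that of 85.8% of the genes with a mean above 5. Its direction rests on the KO arrays at either end: -0.28 without KO replicate 1 and 0.43 without KO replicate 3.

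Cd4 had the largest spread of the 10 genes and lay low on the scale. Its more intense probe set (1419696_at) read 4.63, 3.95 and 2.44 in WT and 3.12, 3.55 and 2.23 in KO. WT arrays 1 and 2 were highest, and array 3 of each group was near the bottom, so the groups overlapped. Means were 3.67 ± 1.12 and 2.97 ± 0.67 (SD, n = 3), with a log2 fold change of -0.71 (SE 0.563, adjusted p = 0.756 by limma). The other probe set, 1427779_a_at, read 3.24, 2.97 and 2.47 in WT and 2.43, 2.82 and 2.43 in KO, again with WT arrays 1 and 2 highest, and had a log2 fold change of -0.33. The SD of Cd4 over the 6 arrays, 0.913, was above that of 96.9% of all tested genes. The size of the group difference rests on WT arrays: it was -1.32 without WT replicate 3 and -0.23 without WT replicate 1. With the near-identical WT arrays 1 and 2 averaged into 1 sample it was -0.40. Differences near the bottom of a GCRMA scale carry little information, and a low Cd4 message does not measure CD4 on the cell surface.

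Cd8a, which encodes the alpha chain of CD8, gave signals well up the scale on every array. Its most intense probe set (1444078_at) read 11.39, 11.29 and 10.84 in WT and 11.08, 10.98 and 9.88 in KO. KO array 3 was 0.96 below the next lowest array, while the other KO arrays lay inside the WT range. Means were 11.17 ± 0.29 and 10.65 ± 0.67 (SD, n = 3), with a log2 fold change of -0.53 (SE 0.310, adjusted p = 0.690 by limma). Without KO replicate 3 the log2 fold change was -0.14, and over 15 alternatives it ran from -0.74 to -0.14 with an adjusted p of 0.415 or more. The other 4 probe sets of Cd8a showed the same low array. On 1425335_at KO array 3 read 9.47, where the other arrays read 10.56 to 10.79. On 1451673_at it read 9.06, where the others read 10.13 to 10.59. On 1440811_x_at and 1440164_x_at it read 8.14 and 6.48, which were 0.76 and 0.79 below the next lowest array. The suffix x marks probe sets whose probes may also bind other transcripts. Probe sets of 1 gene on 1 array share the RNA sample and are not replicates.

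Cd8b1, the beta chain gene beside Cd8a on chromosome 6, read 10.36, 10.33 and 10.24 in WT and 10.59, 10.64 and 8.80 in KO (1426170_a_at). KO arrays 1 and 2 were above all WT arrays and KO array 3 was 1.44 below the lowest of them. Means were 10.31 ± 0.06 and 10.01 ± 1.05 (SD, n = 3), with a log2 fold change of -0.30 (SE 0.438, adjusted p = 0.872 by limma). The direction rests on KO array 3: without it the log2 fold change was 0.31 (adjusted p = 0.515 by limma). The SDs of Cd8a and Cd8b1 over the 6 arrays, 0.543 and 0.684, exceeded those of 89.4% and 94.2% of the genes with a mean above 5. Read together, both CD8 chains were detected well above the bottom of the scale on all 6 arrays and lowest on KO array 3, and Cd4 was at or below 4.63 on all 6 and below 3 on WT array 3 and KO array 3. The arrays do not show whether the CD4 signal of WT arrays 1 and 2 came from all cells or from a part of them.

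**Figure D2:**
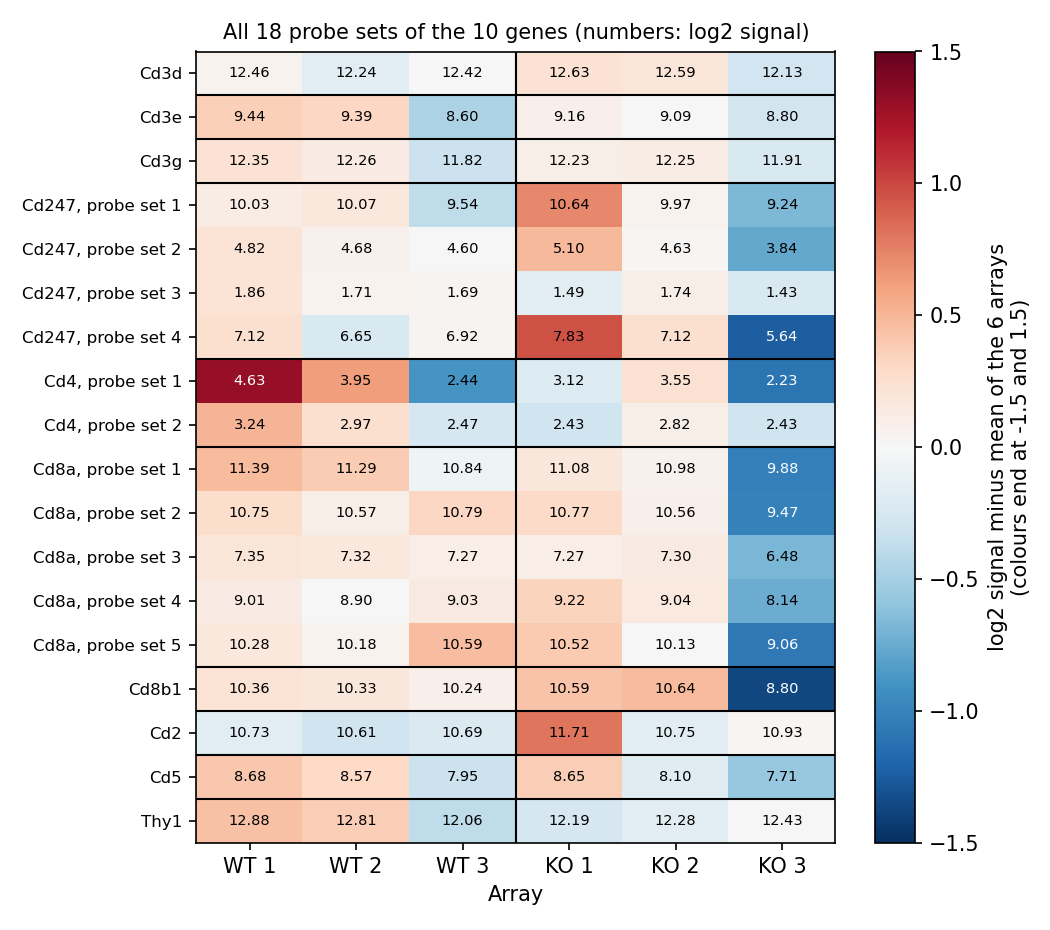
All 18 probe sets of the 10 genes (vertical axis) on the 6 arrays (horizontal axis), with the log2 signal printed in each cell and coloured by its difference from the mean of the 6 arrays. On KO array 3 the 5 probe sets of Cd8a and the 1 of Cd8b1 are each at their lowest value, and Cd4 is highest on WT array 1 at 4.63 and 3.24.

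Of the surface markers, Cd2 was the 1 gene of the 10 whose groups did not overlap. CD2 is an adhesion receptor that binds CD48 on mouse cells. Cd2 read 10.73, 10.61 and 10.69 in WT and 11.71, 10.75 and 10.93 in KO (1418770_at). All KO values lay above the WT values, KO array 2 by 0.02 and KO array 1 by 0.98 over the highest WT array. Groups did not overlap, with KO higher, for 5.49% of all tested genes, and in either direction for 13.8%. Means were 10.68 ± 0.06 and 11.13 ± 0.51 (SD, n = 3), with a log2 fold change of 0.45 (SE 0.228, adjusted p = 0.666 by limma). Without KO replicate 1 the log2 fold change was 0.16. Natural killer and B cells of mice also carry CD2. The 7 measured natural killer markers of 8 listed had a mean level between 3.33 and 3.40 on WT arrays and between 3.50 and 3.90 on KO arrays, highest on KO array 1. Of them Eomes, Klrk1, Ncr1 and Prf1 were near the bottom on all arrays. Gzma, which encodes granzyme A of cytotoxic cells, read 11.47, 11.30 and 12.47 in WT and 12.96, 12.46 and 12.94 in KO, with a log2 fold change of 1.04 (adjusted p = 0.629 by limma). Nkg7 had 0.32, and Klrd1, too low to be tested, read 1.36 to 1.58 in WT and 2.83, 3.06 and 1.66 in KO. The 9 measured B cell markers of 10 listed had mean levels of 3.33 to 3.52 on WT arrays and 3.23 to 4.09 on KO arrays, with Cd79a, Igll1, Pax5 and Vpreb1 near the bottom on all arrays. Of these 9, 8 had a fold change above 0, with 0 past the threshold. Blnk, an adaptor of the B cell receptor, read 3.05 to 3.69 in WT and 4.44, 5.19 and 3.45 in KO. Cd79b, a chain of that receptor, read 4.86 to 5.85 in WT and 6.78, 7.34 and 4.74 in KO. Ms4a1, which encodes CD20, read 5.17 to 6.21 in WT and 7.01, 7.06 and 5.01 in KO. Blnk, Cd79b and Ms4a1 stood high on KO arrays 1 and 2 and not on KO array 3. Cd22 of the same list did not follow them: it read 4.68, 4.70 and 3.30 in WT and 4.45, 4.58 and 3.16 in KO. The part of either cell type in the Cd2 values was not tested.

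Cd5, which encodes an inhibitory receptor whose level follows the strength of T cell receptor signals, read 8.68, 8.57 and 7.95 in WT and 8.65, 8.10 and 7.71 in KO (1418353_at). Array 3 was the lowest in each group, and the groups overlapped. Means were 8.40 ± 0.39 and 8.15 ± 0.47 (SD, n = 3), with a log2 fold change of -0.25 (SE 0.285, adjusted p = 0.831 by limma). Without KO replicate 3 it was -0.025. Thy1, which encodes CD90, a marker of mouse T cells that sits in the membrane through a lipid anchor, read 12.88, 12.81 and 12.06 in WT and 12.19, 12.28 and 12.43 in KO (1423135_at). WT arrays 1 and 2 were above all KO arrays and WT array 3 below them. Means were 12.58 ± 0.45 and 12.30 ± 0.12 (SD, n = 3), with a log2 fold change of -0.28 (SE 0.206, adjusted p = 0.734 by limma). Without WT replicate 3, which leaves the near-identical pair as the wild type, it was -0.55 with an adjusted p of 0.116, the lowest of any of the 10 genes over 15 alternatives; without WT replicate 1 it was -0.14.

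**Figure D3:**
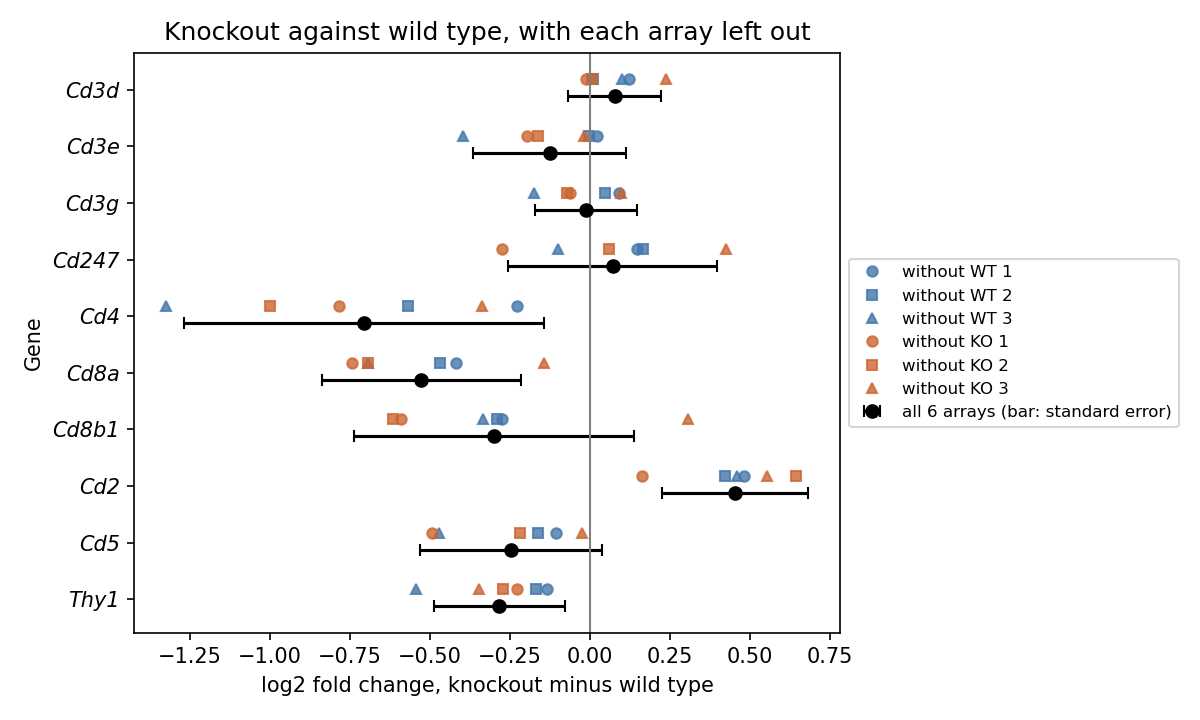
Log2 fold change, KO minus WT (horizontal axis), of the 10 genes (vertical axis), with black points and bars for the estimate ± SE on all 6 arrays and coloured symbols for the estimate with 1 array left out. Cd8b1 moves from -0.30 to 0.31 without KO array 3, Cd4 to -1.32 without WT array 3, and Cd2 stays above 0 in all 6.

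Genes that work with the CD3 complex were read from lists. Of the proximal signalling genes 16 of 18 were measured and tested, 1 with a fold change above 0 and 15 below, with 0 past the threshold and a median of -0.26, against -0.013 over all tested genes. At an unadjusted p under 0.05 there were 0 higher and 3 lower, where all 12565 genes tested gave 415 higher and 567 lower. KO array 3 was lowest for 9 of the 16. Csk, the kinase that restrains Lck, read 8.75, 8.44 and 8.43 in WT and 8.00, 8.07 and 7.36 in KO. Its KO values all lay below the WT values, with a log2 fold change of -0.73 (adjusted p = 0.629 by limma). Ubash3a, a phosphatase family member that dampens receptor signals, had -0.76, also with no overlap. Of the 16 genes, 2 had no overlap with KO lower and 1 with KO higher, against 8.29% and 5.49% of all tested genes. Fyn, a kinase related to Lck, had -1.09, from 8.94 and 9.02 on WT arrays 1 and 2 against 7.38 on WT array 3 and 7.23 to 7.46 in KO. Rhoh, a GTPase needed for receptor signalling, had 0.36 with no overlap. Ptcra, the surrogate alpha chain that pairs with the beta chain before the alpha chain is made, was the 1 measured gene of the 8 listed receptor chain genes, and read 11.28, 11.17 and 10.41 in WT and 10.79, 10.58 and 10.54 in KO (log2 fold change -0.32, adjusted p = 0.723 by limma). WT arrays 1 and 2 stood highest for Ptcra as they did for Cd4, Cd3e and Thy1.

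Other T cell surface markers went both ways, with 4 above 0 and 7 below among the 11 tested of 14 listed, a median of -0.083 and 0 past the threshold. Cd6, a relative of CD5 encoded close to it, read 8.29, 8.03 and 7.39 in WT and 7.99, 7.17 and 6.39 in KO, lowest on array 3 of each group as Cd5 was. Ly6d, a surface protein of early lymphocytes, read 11.33 on KO array 3 and 9.58 to 10.58 on the others, and its log2 fold change was 0.69 (adjusted p = 0.671 by limma). Slamf6, a receptor of lymphocyte contacts, had 0.38, and Cd160 had 0.23.

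Stage genes around the coreceptors varied by array. Genes of the double positive stage had 3 above 0 and 9 below among 12 tested of 14 listed, a median of -0.085 and 0 past the threshold. KO array 3, where Cd8a and Cd8b1 were lowest, was lowest for 10 of these 12, where it was lowest for 22.6% of all tested genes. Bcl6, a repressor expressed at this stage, read 4.79 there and 6.84 to 8.21 on the other arrays. Lef1, a partner of the TCF factors, read 9.93 there and 10.54 to 11.17 on the others. Ets2 read 9.05 there and 9.21 to 10.24 on the others. Dntt, the polymerase that adds bases at receptor joints, did not follow this pattern and was lowest on WT arrays 1 and 2, at 10.52 and 10.32, against 10.99 to 11.83 on the others. The 4 tested erythroid markers (Slc4a1, Alas2, Klf1 and Epor) were also each lowest on KO array 3, with Slc4a1 at 10.70 there and 11.54 to 12.09 on the others, and their part in the values of that array was not tested.

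Double negative stage genes had 6 above 0 and 7 below among 13 tested of 14 listed, with a median of -0.0033 and 0 past the threshold. Notch3, itself a Notch target, had -0.57 with no overlap, where 8.29% of all tested genes had no overlap with KO lower. Mycn, a MYC family gene, had -0.85, and Dtx1, another Notch target, -0.63. Mycn read 13.33 and 13.42 on WT arrays 1 and 2, against 12.28 on WT array 3 and 11.86 to 12.60 in KO. Dtx1 read 12.22 and 12.16 on the same arrays, against 11.20 on WT array 3 and 11.17 to 11.27 in KO. Cd44, an adhesion receptor of the earliest precursors, had 0.64. Single positive stage genes had 11 above 0 and 2 below among 13 tested of 14 listed, a median of 0.45 and 0 past the threshold. Over all tested genes 51.9% lay below 0, and the median was -0.013. The near-identical WT arrays 1 and 2 were each lowest for 4 of the 13, against 12.5% and 12.6% of all tested genes. KO array 3 was lowest for 5 of the 13, against 22.6% of all. Il7r, the interleukin 7 receptor chain that double positive cells lack, read 9.96 on KO array 3 and 6.10 to 7.20 on the others. Klf2, which drives exit from the thymus, had 1.53, from 6.04 and 5.41 on WT arrays 1 and 2 against 7.92 on WT array 3 and 7.48 to 8.73 in KO. Its target S1pr1 had 0.45 from values low on the scale. Ikzf2 had 0.56 with no overlap (adjusted p = 0.629 by limma), where 5.49% of all tested genes had no overlap with KO higher.

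**Figure D4:**
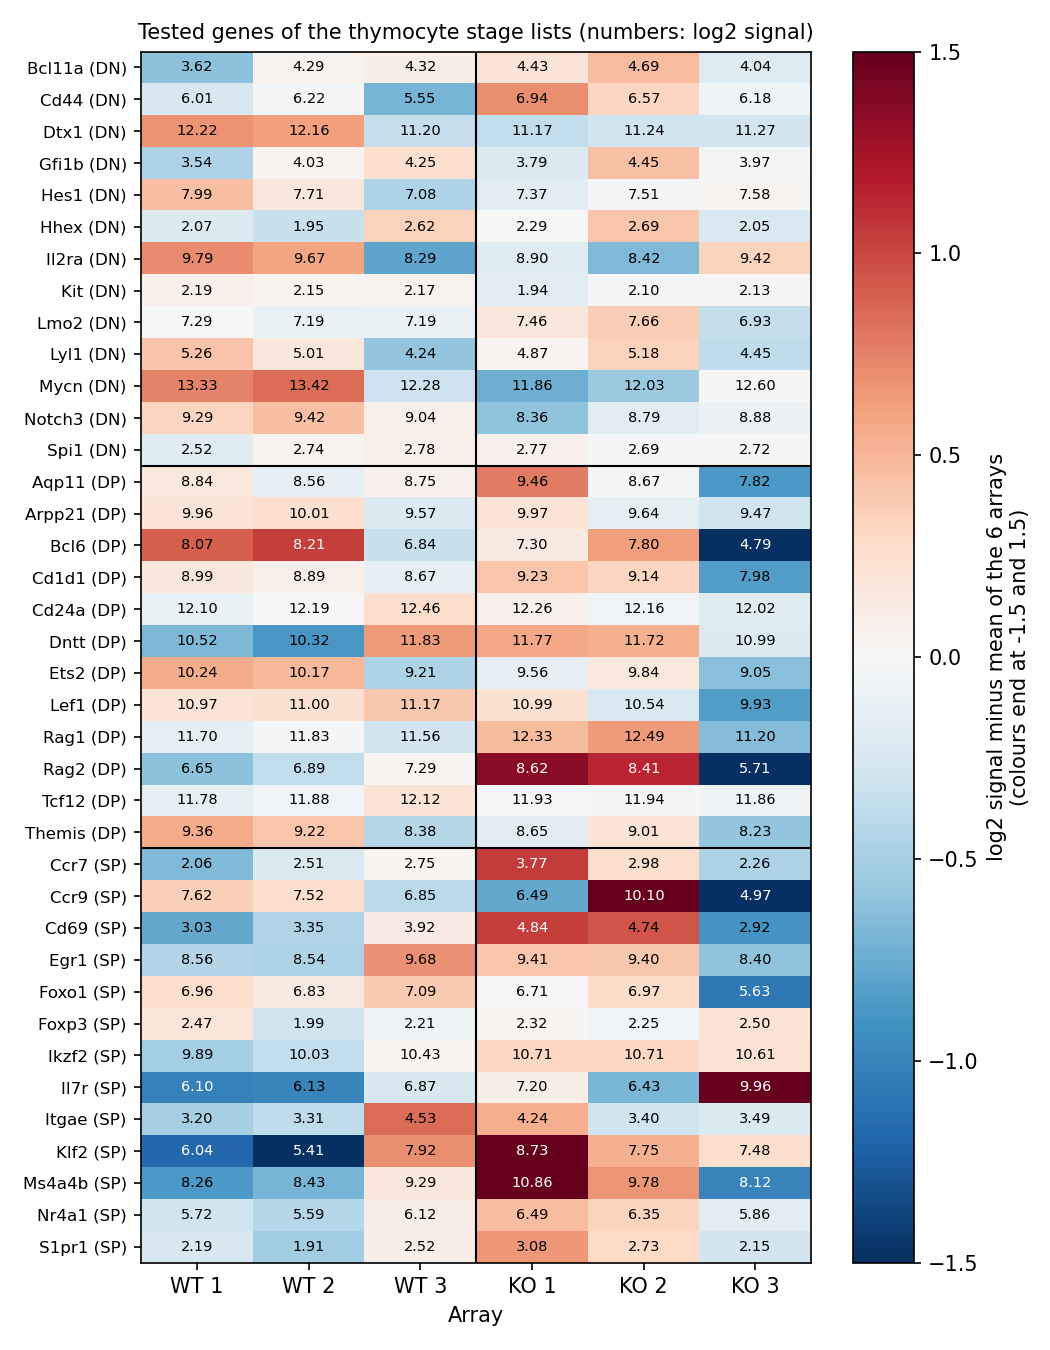
Tested genes of the double negative (DN), double positive (DP) and single positive (SP) lists (vertical axis) on the 6 arrays (horizontal axis), with the log2 signal printed in each cell and coloured by its difference from the mean of the 6 arrays. KO array 3 is lowest for 10 of the 12 DP genes, with Bcl6 at 4.79, for 5 of the 13 SP genes and for 1 of the 13 DN genes. Il7r is highest there, at 9.96.

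Regulators of the choice between CD4 and CD8 had 5 above 0 and 13 below among 18 tested, a median of -0.050 and 0 past the threshold. Bcl11b, a factor that commits cells to the T lineage, read 11.08, 11.13 and 11.04 in WT and 10.47, 10.94 and 10.19 in KO. Its KO values lay below the WT values, lowest on KO array 3, with a log2 fold change of -0.55 (adjusted p = 0.630 by limma). Groups did not overlap, with KO lower, for 8.29% of all tested genes. Tcf3, an E protein, had -0.48, and the chromatin remodelling enzymes Chd4 and Smarca4 had -0.36 and -0.27. Zbtb7b and Runx3, chosen after their values were seen, encode the factors that fix the CD4 and the CD8 lineage. Zbtb7b stayed near the bottom, between 1.98 and 2.55, and Runx3 read 3.30 to 4.79, lowest on array 3 of each group.

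Other cell types that can carry these surface markers were read too. Dendritic cells, some of which carry CD8 alpha, had 5 of their 7 measured markers near the bottom on all arrays (Flt3, Itgax, Siglech, Xcr1 and Zbtb46). The other 2, the transcription factor genes Batf3 and Irf8, stood 0.75 and 0.79 higher in KO on the log2 scale (adjusted p = 0.629 and 0.640 by limma). Their groups did not overlap, where 5.49% of all tested genes had no overlap with KO higher. Batf3 was near the bottom in WT, and Irf8 read 4.68 to 5.24 in WT and 5.26 to 6.38 in KO. Siglech, the remaining dendritic marker tested, had -0.25. The 10 monocyte and macrophage markers had mean levels of 4.91 to 5.62 on WT arrays and 5.19 to 6.23 on KO arrays, highest on KO array 1, with Cd14 and Itgam near the bottom on all arrays. Of these 10, 8 had a fold change above 0, with a median of 0.39 and 0 past the threshold. Fcer1g had 0.62 and Mpeg1 0.36, and Adgre1 and Lyz2 had 0.58 and 0.35 with no overlap. Cd68 and Cd14 were the 2 below 0, at -0.43 and -0.037. Csf1r read 7.14 to 9.20 and Tyrobp 5.85 to 8.09 over the 6 arrays. The 8 granulocyte markers had 6.31 to 6.80 on WT arrays and 6.33 to 6.82 on KO arrays. S100a9 had 0.27 with no overlap, S100a8 0.13 and Camp 0.17. Mpo had -1.06, from 5.99 and 5.84 on WT arrays 1 and 2 against 3.27 on WT array 3 and 3.40 to 4.95 in KO. The 8 stromal and endothelial markers, listed since some stromal cells carry Thy1, had mean levels of 3.12 to 3.46 on WT arrays and 2.69 to 3.29 on KO arrays. Of these 8, Cdh5, Col1a1, Col1a2, Col3a1, Dcn and Kdr were near the bottom on all arrays. Pdgfrb, a growth factor receptor of stromal cells, was not: it read 10.34, 10.72 and 8.11 in WT and 4.88, 9.13 and 9.06 in KO (log2 fold change -2.03, adjusted p = 0.685 by limma). The mean of the list includes Pdgfrb and largely follows it, since most of the other genes were near the bottom. Pecam1 read 4.96 to 5.55. The part of these cell types in the values of the 10 genes was not tested.

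By the same centred distance, the genes with profiles most like that of Cd4 over the 6 arrays were Sfmbt2 (root mean square difference 0.140), Cyp4f16 (0.218) and Slc43a2 (0.227). Sfmbt2 read 4.95, 4.53 and 3.21 in WT and 3.72, 4.25 and 2.82 in KO, in the same order of arrays as Cd4. The genes most like Cd8a were Sh3gl1 (0.054), 2510002D24Rik (0.082) and Tmem185a (0.117), each lowest on KO array 3. With 6 arrays, of which WT arrays 1 and 2 are nearly alike, such likeness among 12565 genes is a description only.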

How the data were processed

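The deposited values are log2 signals of 45101 probe sets on 6 arrays. Per the submitters' processing notes the authors used GCRMA, a background correction from probe sequence followed by normalization and summarisation; the sources used here give no version or settings. That the logarithm has base 2 was inferred from the spread of values. Gene symbols came from the platform's annotation and were brought up to date by gene identifier in RefSeq (GRCm38.p6): 34958 had 1 symbol and were used, 932 had several and 9211 none. Each gene was represented by its probe set with the highest mean, and the test took genes whose mean exceeded 2.04, the 40th percentile over probe sets. KO minus WT was fitted on all 6 arrays with limma 3.58.1 in R 4.3.3 (lmFit, eBayes with an intensity trend, two-sided, Benjamini-Hochberg). The number of arrays limits the precision; the fit was tested on simulated arrays. The 10 genes and the lists were chosen with earlier results of these data known. From each list the text names up to 4 tested genes of smallest p, since none passed, and any marker of another cell type by its level; the genes most like Cd4 and Cd8a are the 3 nearest. Alternatives were the filter, prior variance, scaling, array weights, replicate block, each array left out, WT arrays 1 and 2 averaged, and the handling of probe sets. An alternative pseudocount does not apply to logarithms.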

Additional observations from a re-analysis of the deposited data

How the results depend on the processing

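Under all alternatives run, 0 of the 10 genes passed the threshold, with the replicate block among them (lowest adjusted p 0.687). At an unadjusted p under 0.05 the count of 0 became 3 without WT replicate 3 (Cd4, Cd3e and Thy1), 2 with the block (Cd8a and Cd2), and 1 each without KO replicate 2 (Cd2), without KO replicate 3 (Cd8b1), with median centring (Cd2) and with array weights (Thy1). Over all genes the count past the threshold was 0 in the fit as reported, 2 with median centring, 1 with array weights and 0 to 51 with single arrays left out. Those were 51 without WT replicate 3, 3 without KO replicate 1 and 1 without KO replicate 3, and 0 with the block. The labels do not say that replicate numbers pair the arrays. Deviations of same-numbered arrays from their group means correlated at -0.038, -0.049 and -0.051 over genes, and those of other numbers at -0.051 to 0.085. Centring each group of 3 on its own mean ties these correlations together, so they do not decide whether arrays are paired. Of 167 comparisons of a gene's log2 fold change with its reported value, 151 kept the direction and 16 reversed. The 151 include comparisons that could not reverse. Changes to the filter, the prior variance or the block leave the estimate as it is, as does the mean over probe sets for a gene with 1 probe set. The refit of a gene's own reported probe set does so too. Among the 16 reversals, Cd3d stood at -0.013 without KO replicate 1, in a range up to 0.24 with single arrays left out. Cd3e stood at 0.023 with median centring, 0.022 without WT replicate 1 (from -0.40 without WT replicate 3) and 0.0092 with WT replicates 1 and 2 averaged. Cd3g stood at 0.00083 with quantile normalization, 0.14 with median centring, 0.068 with WT arrays averaged, and 0.090, 0.045 and 0.097 without WT replicate 1, WT replicate 2 or KO replicate 3 (from -0.18 without WT replicate 3). Cd247 stood at -0.10 without WT replicate 3, -0.28 without KO replicate 1 (up to 0.43 without KO replicate 3), -0.085 with the mean over probe sets, and -0.18 and -0.033 on its probe sets 1420716_at and 1452539_a_at. Cd8b1 stood at 0.31 without KO replicate 3 (from -0.62 without KO replicate 2). Cd4, Cd8a, Cd2, Cd5 and Thy1 kept their direction in all 15 alternatives that refit them, among them those that cannot move the estimate. Cd4, near the bottom on 2 arrays, is limited by signal over background.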
